A study of Mus musculus with 78 samples.

Results

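Endothelium-enriched RNA from the partially ligated left common carotid artery (LCA) of vehicle-treated mice was compared between 2 weeks and 48 h after surgery. The comparison used 10 of the 78 arrays of the study, chosen by their titles: 5 mice at 2 weeks and 5 other mice at 48 h, so that no mouse appears in both groups. All mice of the study had their LCA partially ligated, and the right common carotid artery (RCA) of each served as its own control. Other mice received atorvastatin, a cholesterol-lowering drug, at 10 mg/kg/day from 2 days before surgery, and further groups were taken at 12 h and 24 h. The labels give no strain, age or sex, and they do not say which arrays shared an extraction batch, so batch and time cannot be told apart. The RNA was flushed from the artery lumen with a lysis reagent, and it therefore holds RNA of every cell type that the flush reached.

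Partial ligation leaves the artery open but makes its flow low and oscillating. Endothelial cells sense the drag of flowing blood: steady flow keeps the transcription factors Klf2 and Klf4 high and with them genes that restrain clotting and leukocyte adhesion, whereas disturbed flow lowers them and favours inflammation. In the ligated mouse carotid an early phase of leukocyte entry and cell division is followed over weeks by macrophage accumulation, matrix deposition and a thickening intima. Levels below are log2 values on an array scale set by robust multi-array averaging (RMA), so that differences are on the log2 scale. A gene was called when its limma p-value, adjusted by the Benjamini-Hochberg method over all genes tested, was under 0.05. A gene was tested when its value exceeded the array median on at least 4 arrays of the fit. In these bulk samples a change in the number of cells of a type and a change in RNA per cell cannot be told apart.

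The labels call the RNA endothelial. The mean level over 15 endothelial genes lay between 9.20 and 9.48 on the 2-week arrays, against 9.04 to 9.55 on the 48 h arrays. The mean over 12 smooth muscle genes was also high at 2 weeks, at 9.51 to 10.33 in 4 of the 5 mice. It was 6.39 to 6.81 at 48 h. Smooth muscle markers were not absent at 48 h. Acta2, Lmod1, Synpo2, Mylk, Tpm2, Myl9 and Cald1 were above the array median on all 5 arrays of that time, and Actg2 and Cnn1 on none. The arrays of both times thus hold markers of both cell types. How the cell types divide the RNA was not tested. Genes of B cells (6 with a probe set), skeletal muscle (6) and thyroid (3) did not pass the filter. The skeletal muscle list nevertheless averaged 5.06 in 48 h mouse 2 and 3.54 to 3.76 in the other 48 h mice. Among the 10 mice, 2-week mouse 2 and 48 h mouse 4 stood apart and touch most results below. In 2-week mouse 2 the smooth muscle mean was 6.99. In 48 h mouse 4, the mean over 6 neutrophil genes was 3.36 (7.72 to 9.47 in the other 48 h mice) and the mean over 21 DNA replication genes was 6.10 (7.52 to 8.95 in the others). The T cell list of 48 h mouse 4 was 4.52 in its LCA (3.54 to 3.76 in the other 48 h mice) and 5.32 in its RCA (3.66 to 3.90), and its RCA was also high in natural killer genes, at 6.66 (4.63 to 4.81). The chemokine gene Cxcl9 read 9.23 in its LCA and 10.30 in its RCA, and at most 3.89 in either artery of the other 48 h mice. An RNA quality measure, the 3' minus 5' level of the Gapdh control probes, was 4.0 ± 0.46 at 2 weeks and 3.95 ± 0.42 at 48 h in the LCA (SD, n = 5 each; two-sided exact permutation p = 0.849). In the RCA it was 3.81 ± 0.28 at 2 weeks and 4.33 ± 0.20 at 48 h (exact permutation p = 0.0159). The same measure for the b-actin controls was -0.48 ± 0.13 at 2 weeks and -0.17 ± 0.19 at 48 h in the RCA (exact permutation p = 0.0238), and -0.12 ± 0.20 and -0.04 ± 0.26 in the LCA in that order (exact permutation p = 0.571). The part of this in the RCA results, and in the LCA minus RCA results that use the same RCA arrays, was not tested.

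**Figure D1:**
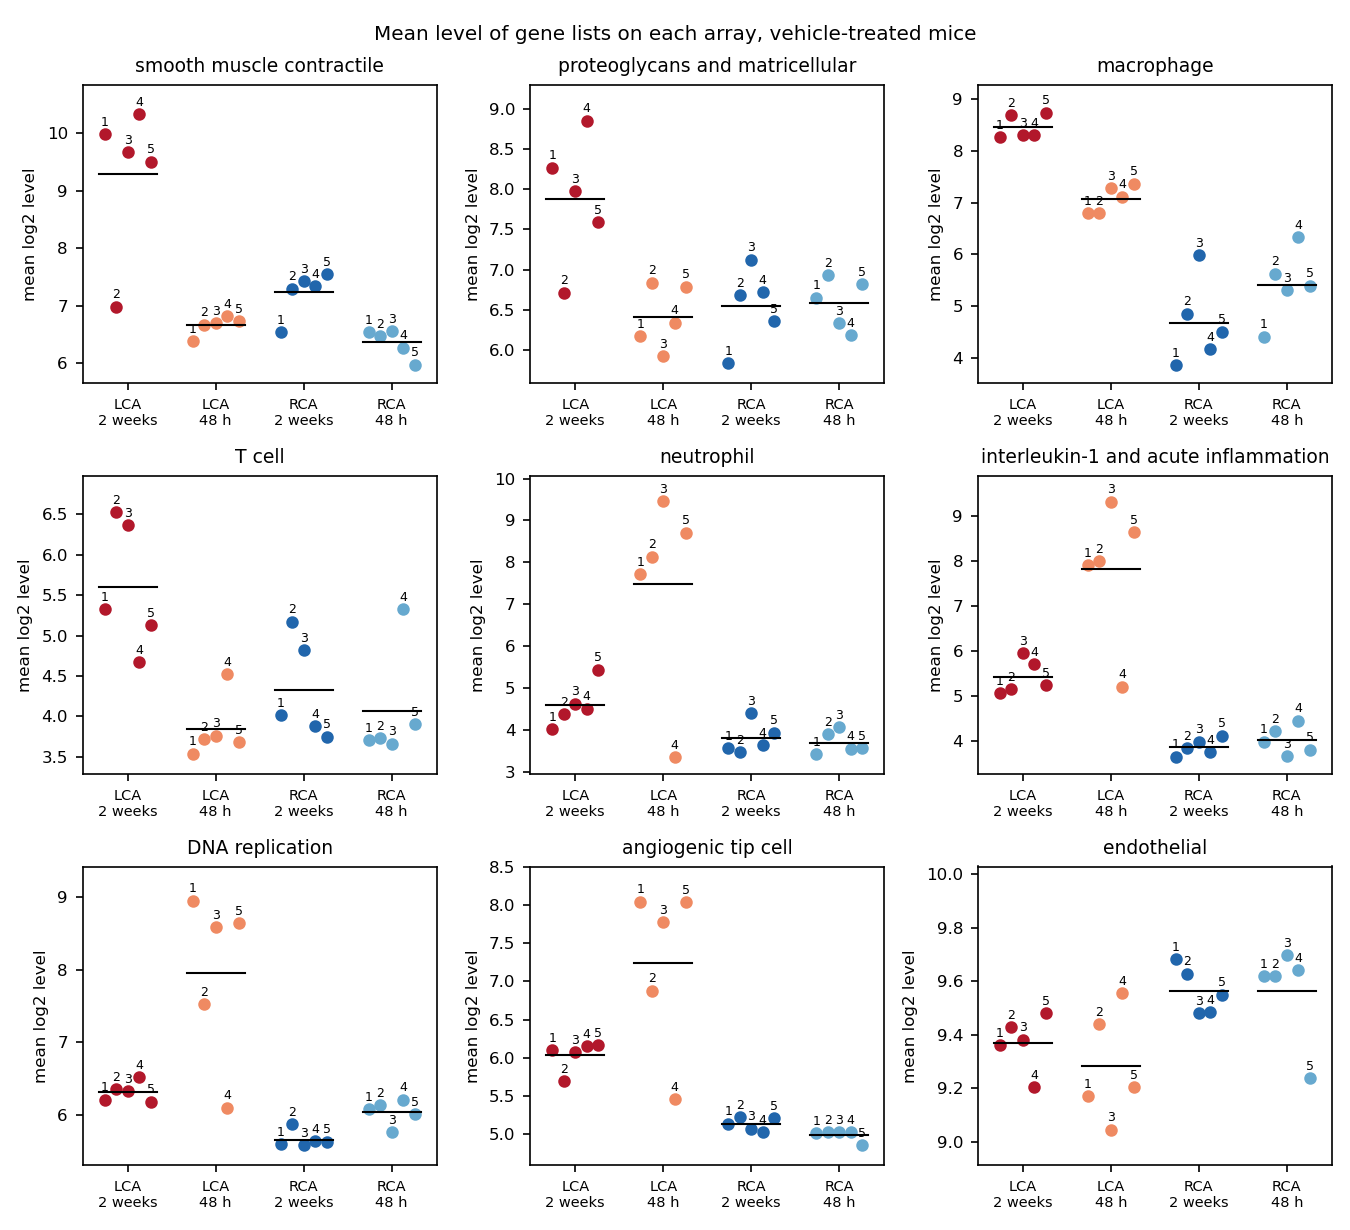
Mean log2 level of the tested members of 9 gene lists on each array of the vehicle-treated mice, with the mouse number beside each point and the group mean as a line, for LCA and RCA at 2 weeks and 48 h. The smooth muscle list lies at 9.51 or above in 4 of the 5 LCA arrays at 2 weeks and at 6.99 in mouse 2, against at most 6.81 at 48 h, while the neutrophil list lies at 7.72 or above in 4 of the 5 LCA arrays at 48 h and at 3.36 in mouse 4.

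Of 10074 genes tested in the ligated carotid, 282 were higher at 2 weeks than at 48 h (2.8%) and 548 were lower (5.44%), 8.24% in either direction. The rises were larger than the falls: the median log2 difference was 1.29 among the called rises and -0.86 among the called falls, and 94 rises but 34 falls passed 2 on the log2 scale. For 566 called genes the 5 values at 2 weeks did not overlap the 5 values at 48 h (5.62% of genes tested). Over all genes, called or not, 809 had values that did not overlap (8.03%). The median difference over all genes was -0.10. After a further quantile normalization it was -0.01, and the calls were then split into 305 higher and 326 lower (3.03% and 3.24%, 6.26% in all). The excess of falls depended on the scaling and, as given next, on single mice.

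The number of calls depended strongly on single mice. Without 48 h mouse 4, 925 genes were higher and 2244 lower (9.26% and 22.5%, 31.7% in all), and 824 of the 830 original calls were kept in the same direction. Without 2-week mouse 2, 344 were higher and 442 lower (3.44% and 4.42%, 7.86% in all), and with both mice left out 922 were higher and 2049 lower (9.3% and 20.7%). Leaving out 2-week mouse 1 gave 61 higher and 59 lower, mouse 3 gave 72 and 66, mouse 4 gave 110 and 160, and mouse 5 gave 53 and 43. Leaving out 48 h mouse 1 gave 84 higher and 85 lower, mouse 2 gave 247 and 453, mouse 3 gave 105 and 92, and mouse 5 gave 87 and 54. Rises thus outnumbered falls in 5 of the 10 fits with a mouse left out. A core of 89 genes, 50 higher and 39 lower, was called in the same direction in all 10 of these fits. It held Itga8, Speg, Acan, Gucy1a1, Ms4a7, C1qb, C1qc, Cd3e, Lpl, Ltbp2, Eln, Col6a3, Mmp13 and Klf2 among the rises and Prg4, Il33, Rhpn2, Plat, Selp and Cxcl12 among the falls. Of 37 gene lists with a call, 14 kept at least 1 call in the same direction with each mouse left out in turn, and the other 23 did not. The 14 were the smooth muscle, macrophage, T cell, laminar flow, disturbed flow, TGF-beta, coagulation, CXC chemokine, complement, lipid handling, collagen, elastic fibre, proteoglycan and protease lists.

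The filter also bears on the lists. It admitted 68 genes that were above the array median on no 48 h array and 88 that were above it on no 2-week array, and such genes had to differ. With no filter, 262 of 17097 genes were higher (1.53%) and 423 lower (2.47%), 4.01% in all.

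**Figure D2:**
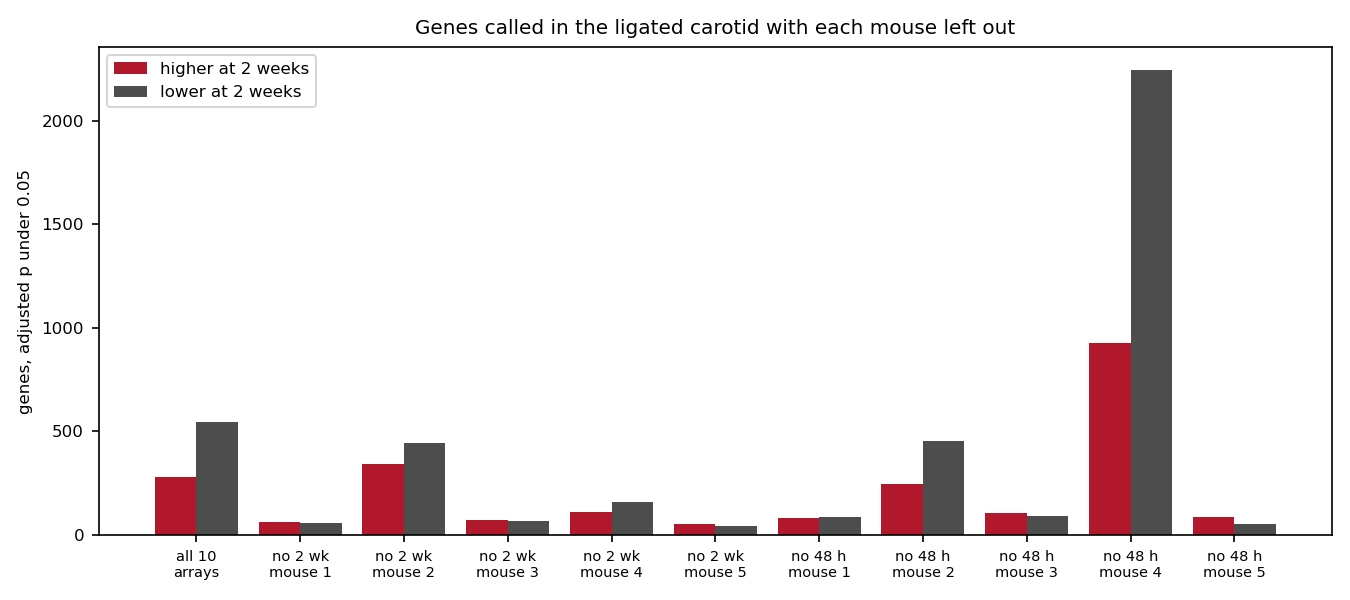
Number of genes called higher (red) and lower (grey) at 2 weeks in the ligated carotid, with all 10 arrays and with each mouse left out in turn. The bars for the fit without 48 h mouse 4 reach 925 and 2244 genes, above the 282 and 548 of all arrays, while every other omission gave at most 786 calls.

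Among named genes whose groups did not overlap, the largest rise was that of Itga8. Itga8, the alpha8 integrin subunit of contractile smooth muscle, read 12.09, 6.97, 11.55, 11.95 and 11.22 in 2-week mice 1 to 5, against 4.04, 5.03, 5.02, 6.96 and 4.24 in 48 h mice 1 to 5. The groups did not overlap, but 2-week mouse 2 lay barely above 48 h mouse 4. The log2 difference was 5.69 ± 0.94 (SE; adjusted p = 0.0129). Myh11, the smooth muscle myosin heavy chain, read 10.99, 5.84, 10.48, 10.65 and 10.04 at 2 weeks, against 3.21, 5.06, 4.79, 6.26 and 4.78 at 48 h (log2 difference 4.78 ± 0.93 SE, adjusted p = 0.0205). Here 2-week mouse 2 fell among the 48 h mice and the other 4 lay above all of them.

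Of 12 tested smooth muscle contractile genes, 9 rose and 0 fell, with a list median of 2.50 against -0.10 for all genes. Besides Itga8 and Myh11 these were the gamma smooth muscle actin Actg2 (4.46), calponin Cnn1 (3.57), the regulatory myosin light chain Myl9 (2.78), tropomyosin Tpm2 (2.58), the transcriptional coactivator Myocd (2.41), leiomodin Lmod1 (2.20) and the myosin light chain kinase Mylk (1.61). Synpo2 (0.90), Acta2 (0.73) and Cald1 (-0.09) were not called. Acta2, alpha smooth muscle actin, was high at both times: it read 12.43, 10.18, 12.19, 12.52 and 12.13 at 2 weeks, against 11.27, 11.49, 11.13, 9.98 and 11.90 at 48 h. The count was 10 without 48 h mouse 4, 9 without 2-week mouse 2, and as low as 1 with another mouse left out. Actg2 and Cnn1 passed the filter through the 2-week arrays: they were above the array median on 4 of them and on no 48 h array. With no filter 9 of all 13 members with a probe set rose and 0 fell, against 1.53% of all genes called higher. In the RCA 0 of 9 tested members were called (0.112% of all genes tested there) and their median was 0.47, with list means of 6.54 to 7.54 at 2 weeks and 5.97 to 6.56 at 48 h. The time change of the LCA differed from that of the RCA for 1 of 12 members, Actg2 (difference of changes 4.02, adjusted p = 0.0458), against 1.38% of all genes tested.

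Smooth muscle contractile genes are classically driven by serum response factor, which binds the CArG box, with myocardin as its partner. Of 13 list members with a probe set, 10 had a RefSeq promoter (GRCm38.p6), and the box was found on either strand in the 250 bases before the start site of 1 of them, Myl9 (10.0%, against 1.62% of 27025 promoters). The Myl9 window, chr2:156775214-156775463 on the plus strand, is shown with the box in capitals because Myl9 was the list member whose promoter held it.
Myl9: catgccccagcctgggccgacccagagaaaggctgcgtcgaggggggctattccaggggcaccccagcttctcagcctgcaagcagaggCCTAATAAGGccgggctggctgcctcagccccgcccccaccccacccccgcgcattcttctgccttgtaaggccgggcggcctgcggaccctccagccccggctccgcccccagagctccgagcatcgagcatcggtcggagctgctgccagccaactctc

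**Figure D3:**
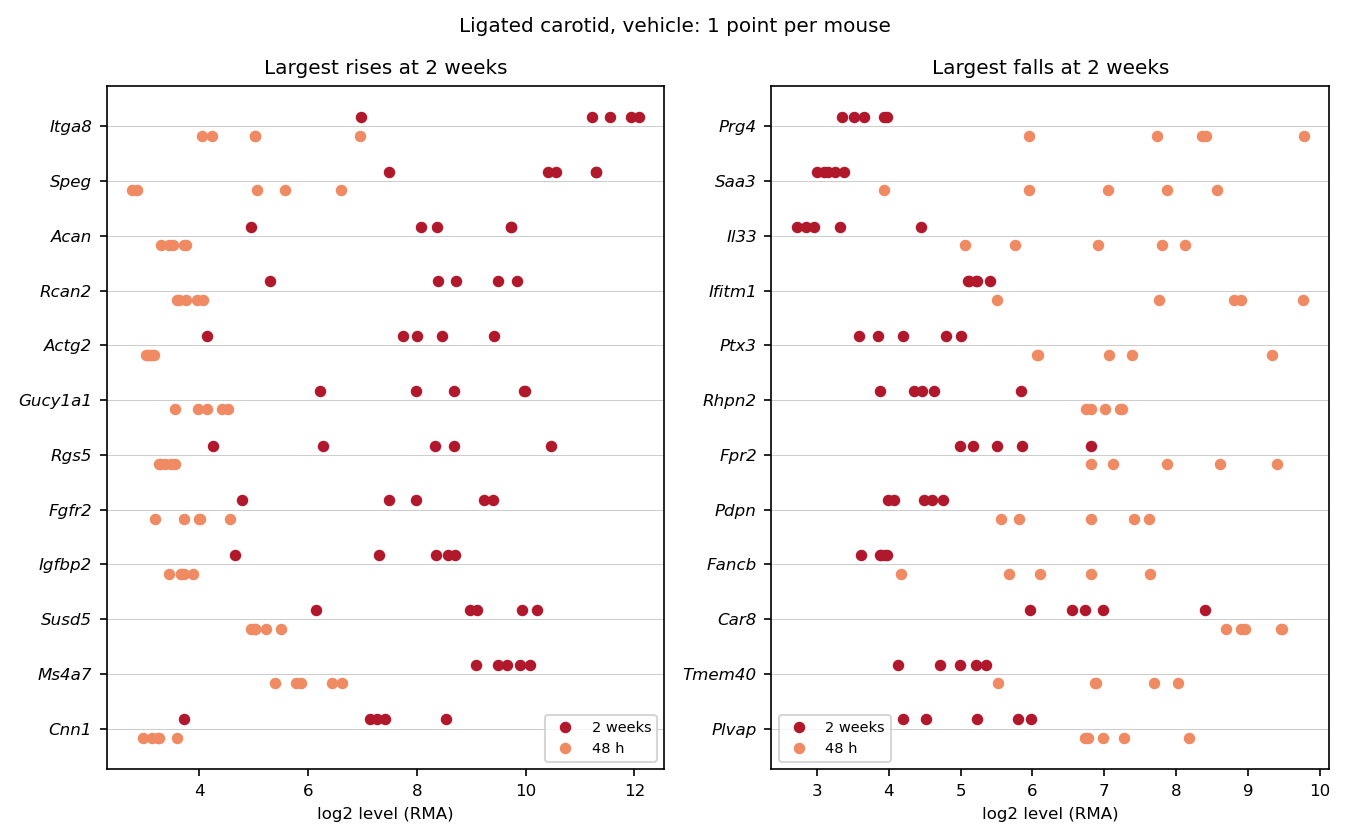
Log2 levels in the ligated carotid of each vehicle-treated mouse for the 12 largest rises and the 12 largest falls among called genes whose groups did not overlap, 2 weeks (red, upper row of each gene) and 48 h (orange, lower row). For Itga8, Speg, Acan, Actg2 and Cnn1 1 of the 2-week points, mouse 2, lies apart near the 48 h points, whereas the Ms4a7 points of the 2 times are separated by more than 2 log2 units.

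Other genes among the 12 largest rises without overlap have various roles. Gucy1a1, a subunit of the nitric oxide receptor guanylate cyclase, read 9.98, 6.21, 8.69, 9.97 and 7.98 at 2 weeks, against 3.98, 4.13, 3.56, 4.42 and 4.52 at 48 h (4.44 ± 0.63 SE, adjusted p = 0.00757). All 2-week values lay above all 48 h values, and the time change differed from that of the RCA (4.37, adjusted p = 0.0193). Speg, a striated and smooth muscle kinase, rose by 5.64, the calcineurin regulator Rcan2 by 4.54, the pericyte gene Rgs5 by 4.22, the growth factor receptor Fgfr2 by 3.89 and Susd5 by 3.73. In each of these the lowest 2-week value was that of mouse 2. Notch3, the Notch receptor of mural cells (1.69), its target Heyl (3.52) and the ligand Jag1 (0.77) rose. They were the 3 called members of 14 tested Notch and arterial genes, against 2.8% of all genes called higher. The count was 1 after a further quantile normalization and as low as 0 with 1 mouse left out. Without 48 h mouse 4 there were 4 rises and 2 falls (9.26% and 22.5% of all genes). Notch3 was above the array median on 4 of the 2-week arrays and on no 48 h array, and Heyl on 4 and 1. They thus passed the filter through the time at which they were high. With no filter 1 of all 15 members with a probe set rose and 0 fell, against 1.53% of all genes called higher. Notch1 (-0.02), Gja5 (-0.20) and Dll4 (-0.45), which mark arterial endothelium, were not called. Igfbp2, a binding protein for insulin-like growth factors, rose by 3.85 ± 0.66 SE (adjusted p = 0.0154). Igf2, a fetal growth factor, fell and read 3.10, 6.68, 3.68, 4.21 and 3.31 at 2 weeks, against 6.34, 7.60, 6.61, 8.10 and 6.20 at 48 h (-2.77 ± 0.65 SE, adjusted p = 0.0337). The Igf2 ranges overlapped through 2-week mouse 2, and the RCA averaged 9.01 at 2 weeks and 9.03 at 48 h.

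Several matrix genes rose. The smooth muscle list mean, given above, was higher on the same 4 arrays, and its part in the matrix results was not tested. Acan, the large cartilage-type proteoglycan aggrecan, read 9.72, 4.96, 8.37, 9.73 and 8.08 at 2 weeks, against 3.30, 3.51, 3.75, 3.71 and 3.45 at 48 h. The groups did not overlap, and the difference was 4.63 ± 0.76 SE (adjusted p = 0.0129). Its time change differed from that of the RCA, which averaged 4.07 at 2 weeks and 3.85 at 48 h (4.41, adjusted p = 0.0298). Of 16 proteoglycan and matricellular genes tested, 4 rose and 0 fell, with a median of 0.99. Of all genes tested, 2.8% were called higher. The 4 were Acan, Ccn3 (4.01), periostin Postn (3.98), a matricellular protein of remodelling tissue, and Sparcl1 (0.95). Tenascin Tnc (2.16), Ogn (1.78) and versican Vcan (0.58) were not called. Of 15 collagen genes 3 rose and 0 fell (median 0.89): Col15a1 (2.57), Col6a1 (2.54) and Col6a3 (2.39). The major fibrillar collagens Col1a1 (2.30, adjusted p = 0.107) and Col3a1 (1.17, adjusted p = 0.246) were not called. Without 2-week mouse 2 the counts were 7 for proteoglycans and 7 for collagens (3.44% of all genes were then higher). With other single mice out they were as low as 1 for each. Acan was above the array median on no 48 h array, and Sparcl1 and Col15a1 on 1. All of them passed the filter through the 2-week arrays. With no filter 4 of all 17 proteoglycan members and 3 of all 16 collagen members rose, against 1.53% of all genes, and 0 fell.

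Elastic fibre genes showed 3 rises and 0 falls of 12 tested (median 1.08). Beside this list and those that follow, 2.8% of all genes tested were called higher. Ltbp2, a microfibril-associated relative of the latent TGF-beta binding proteins, read 10.76, 9.63, 10.52, 10.93 and 10.88 at 2 weeks, against 6.87, 6.89, 5.45, 7.85 and 7.82 at 48 h (3.57 ± 0.44 SE, adjusted p = 0.00421). The groups were clearly separated. Its RCA averaged 4.25 at 2 weeks and 4.34 at 48 h, and the time changes differed between the arteries (3.65, adjusted p = 0.00116). Eln, elastin, read 12.37, 10.52, 12.13, 12.27 and 12.21 at 2 weeks, against 9.71, 10.12, 10.06, 9.98 and 9.64 at 48 h (2.00 ± 0.32 SE, adjusted p = 0.0118). No 2-week value reached down to the 48 h range, and the third called member was Mfap2 (1.20). Without 2-week mouse 2 there were 7 rises and 1 fall (3.44% and 4.42% of all genes). In the TGF-beta and mesenchymal transition list 4 of 15 rose and 0 fell: Ltbp2, Ltbp1 (2.72), the ligand Tgfb3 (2.57) and the receptor Tgfbr1 (0.75). The transcription factors of mesenchymal transition Snai2 (0.60), Zeb2 (0.43), Zeb1 (-0.27) and Twist1 (-0.30) were not called. Basement membrane genes gave 2 rises and 0 falls of 11, Col4a5 (3.03) and Lamc1 (0.66). The fibroblast marker list gave 0 calls of 9 (median 0.28).

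Macrophage genes gave 8 rises, and 2.8% of all genes tested were called higher. Ms4a7, a membrane protein of tissue macrophages, read 9.67, 9.09, 9.50, 9.90 and 10.08 at 2 weeks, against 5.87, 5.39, 5.78, 6.62 and 6.44 at 48 h. All 2-week values lay over 2 log2 units above all 48 h values (3.63 ± 0.26 SE, adjusted p = 0.000166). The RCA averaged 4.33 at 2 weeks and 5.17 at 48 h, and the difference of the time changes was 4.47 (adjusted p = 0.00234). Of 14 macrophage genes tested 8 rose and 0 fell, with a median of 1.32: besides Ms4a7 these were the complement C1q chains C1qc (2.35), C1qb (2.25) and C1qa (2.02), Aif1 (1.91), the fractalkine receptor Cx3cr1 (1.59), Adgre1, which encodes F4/80 (1.52), and the pore-forming Mpeg1 (1.13). Lyz2, lysozyme of monocytes, macrophages and neutrophils, was high at both times, at 10.15 to 10.92 at 2 weeks and 9.91 to 11.34 at 48 h. The list gave 9 rises without 48 h mouse 4 and 6 without 2-week mouse 2 (9.26% and 3.44% of all genes). It gave at least 3 with any mouse left out. With no filter 6 of all 14 members rose and 0 fell, against 1.53% of all genes called higher. In the RCA 0 of 10 tested members were called (median -0.89), against 0.112% of all genes tested there. The time change was higher in the LCA than in the RCA for 6 of 14 members, against 0.888% of all genes tested.

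Other genes of the macrophage lineage were lower at 2 weeks. Of 5 genes typical of resident-type macrophages 2 fell and 0 rose, against 5.44% of all genes called lower. The falls were Cd163, the haemoglobin scavenger receptor (-1.71), and F13a1, coagulation factor XIII A (-2.14). Folr2 (-0.33), Cbr2 (0.79) and Gas6 (1.23) were not called. Cd163 was above the array median on every 48 h array and on 1 2-week array, and F13a1 on 4 and 2. Both thus passed the filter through the 48 h arrays. With no filter 1 of all 6 members fell and 0 rose, against 2.47% of all genes called lower. Chil3, a secreted chitinase-like protein of monocytes and neutrophils, fell by 3.83 (adjusted p = 0.0482). It read 5.64 in 48 h mouse 4, 9.35 to 11.68 in the other 48 h mice and 3.85 to 7.20 at 2 weeks. Lipid handling genes gave 2 rises and 0 falls of 11 tested. Lpl, the lipase that releases fatty acids from lipoproteins, read 9.92, 10.61, 9.22, 9.93 and 9.43 at 2 weeks, against 7.07, 7.98, 7.18, 7.42 and 6.90 at 48 h, with no overlap (2.51 ± 0.28 SE, adjusted p = 0.00328). Abcg1, a cholesterol exporter, rose by 0.86. Apoe (1.80), Cd36 (1.24) and Fabp4 (1.87) were not called. Among lysosomal genes 4 of 14 rose and 0 fell: tartrate-resistant acid phosphatase Acp5 (1.99) and the cathepsins Ctsc (0.85), Ctsb (0.71) and Ctsa (0.67). Of 13 complement genes 4 rose, the C1q chains and the regulator Cd55 (0.94), and 0 fell. Mmp13, an interstitial collagenase, read 6.33, 8.01, 6.83, 7.34 and 6.63 at 2 weeks, against 3.86, 3.32, 3.47, 5.56 and 3.44 at 48 h. The groups did not overlap, with 48 h mouse 4 the highest of its group (3.10 ± 0.45 SE, adjusted p = 0.00792). The stromelysin Mmp3 (-2.27) and the aggrecan-cleaving protease Adamts4 (-2.70) fell. The 12 protease and inhibitor genes tested thus split into 1 rise and 2 falls, against 2.8% higher and 5.44% lower of all genes. Mmp3 was above the array median on 4 of the 48 h arrays and on no 2-week array, so it passed the filter through the former. With no filter 1 of all 14 members with a probe set rose and 1 fell.

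Several T cell genes rose. Cd3e, a chain of the T cell receptor complex, read 6.26, 6.31, 6.87, 4.95 and 5.18 at 2 weeks, against 3.28, 3.08, 3.52, 4.32 and 3.31 at 48 h. The lowest 2-week value lay above the highest 48 h value, that of mouse 4 (2.41 ± 0.38 SE, adjusted p = 0.0109). Of 6 T cell genes tested 5 rose and 0 fell (median 1.45), against 2.8% of all genes called higher. The 5 were Cd3g (2.41), Cd3e, the adaptor Lat (1.49), Cd2 (1.41) and Cd3d (1.40). Cd8a (1.42) was not called, and Cd4, Cd8b1, Cd28 and Icos did not pass the filter. The 6 passed through the 2-week arrays, 4 of them above the array median on no 48 h array and the other 2 on 1, so this count does not stand for the whole list. With no filter 7 of all 10 members rose and 0 fell, with a median of 1.41, against 1.53% of all genes called higher. With the filter all 6 rose without 48 h mouse 4 (9.26% of all genes). Without 2-week mouse 2 only 3 passed the filter, of which 2 rose (3.44% of all genes). The granule protease Gzma, of cytotoxic lymphocytes, rose by 2.91 (adjusted p = 0.0196), while Prf1, perforin, did not pass the test (0.27). Gzma was the 1 called member of 3 natural killer and cytotoxic genes tested. It was above the array median on every 2-week array and on no 48 h array, so it passed the filter through the former. With no filter 1 of all 7 members rose and 0 fell, against 1.53% of all genes called higher. Ccl5, a T cell-attracting chemokine, read 7.38, 7.51, 9.20, 6.73 and 7.51 at 2 weeks, against 4.11, 4.51, 4.29, 7.95 and 3.83 at 48 h. Mouse 4 alone among the 48 h mice lay in the 2-week range (2.73 ± 0.75 SE, adjusted p = 0.05 after rounding, just under the threshold). With no filter Ccl5 was not called. Set against the RCA of each mouse the Ccl5 change was 3.70 (adjusted p = 0.00344).

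Antigen presentation genes gave 3 rises, and 2.8% of all genes tested were called higher. The MHC class II genes H2-Eb1 (1.73), H2-Ab1 (1.32) and H2-Aa (1.13) rose, out of 10 tested in that list, with 0 falls. H2-Eb1 read 10.59, 11.17, 11.42, 11.01 and 10.64 at 2 weeks, against 8.15, 9.12, 8.80, 10.81 and 9.32 at 48 h. Again 48 h mouse 4 alone reached the 2-week range. Without that mouse 6 genes rose and 1 fell (9.26% and 22.5% of all genes), and without 2-week mouse 2 there were 0 calls. With no filter 1 of all 11 members with a probe set rose and 0 fell, against 1.53% of all genes called higher. In the RCA the list mean of 48 h mouse 4 was 7.88, and it was 4.48 to 5.67 in the other 48 h mice. Of 8 interferon-stimulated genes 1 rose, Oas2 (0.44), and Gbp2 (2.25) and Cxcl9 (2.39) were not called with all 10 arrays. Dendritic cell genes gave 0 calls of 5 tested.

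Some genes of acute inflammation fell. Il1r2, the interleukin-1 decoy receptor of neutrophils, read 3.72, 3.35, 3.87, 3.94 and 3.63 at 2 weeks, against 7.46, 8.05, 9.80, 3.29 and 8.66 at 48 h. The 2-week mice were uniformly low and 4 of the 5 mice at 48 h were high, with mouse 4 as low as the 2-week group (-3.75 ± 0.97 SE, adjusted p = 0.0435). Of 6 neutrophil genes tested 3 fell and 0 rose, against 5.44% of all genes called lower. The 3 were Il1r2, the chemokine receptor Cxcr2 (-3.36) and the granulocyte growth factor receptor Csf3r (-2.78). The alarmins S100a8 (-3.28) and S100a9 (-2.26) were not called with all arrays. These 3 were above the array median on 4 of the 48 h arrays and on no 2-week array, so they passed the filter through the time at which they were high. With no filter 0 of all 9 members with a probe set were called, and their median was -2.26. With the filter all 6 fell without 48 h mouse 4 (22.5% of all genes were then lower), and 0 were called without 2-week mouse 2. Il1r2 averaged 3.45 at 2 weeks and 3.46 at 48 h in the RCA. Of 10 interleukin-1 and acute inflammation genes 4 fell and 0 rose (median -2.29): Slfn4 (-3.77), Il1r2, Slfn1 (-2.96) and the formyl peptide receptor Fpr2 (-2.30). The count was 9 without 48 h mouse 4 and 1 without 2-week mouse 2 (22.5% and 4.42% of all genes), and as low as 0 with another mouse left out. With no filter 1 of all 15 members fell (2.47% of all genes). The neutrophil list mean moved with these genes, and its part in them was not tested. Il1b, interleukin-1 beta itself, read 7.40, 7.82, 7.59, 8.08 and 6.59 at 2 weeks, against 9.95, 9.94, 10.88, 6.49 and 10.60 at 48 h, and missed the threshold (-2.08 ± 0.72 SE, adjusted p = 0.088). In the RCA at 2 weeks Il1b read 3.92 to 4.14.

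Among genes whose groups did not overlap, the largest fall was in Prg4, the lubricating proteoglycan lubricin, which read 3.66, 3.52, 3.98, 3.35 and 3.94 at 2 weeks, against 8.36, 9.78, 5.96, 8.41 and 7.73 at 48 h (-4.36 ± 0.55 SE, adjusted p = 0.00488). The groups did not overlap. The RCA averaged 5.05 at 2 weeks and 7.77 at 48 h, and neither the RCA change (-2.71, adjusted p = 0.149) nor the difference of the changes (-1.64, adjusted p = 0.335) was called. Il33, a nuclear alarmin, read 2.72, 4.45, 3.32, 2.96 and 2.85 at 2 weeks, against 5.76, 8.12, 5.06, 6.91 and 7.80 at 48 h, with no overlap (-3.47 ± 0.58 SE, adjusted p = 0.0131). Other secreted or surface proteins of inflamed tissue among the 12 largest falls were serum amyloid Saa3 (-3.50), the pentraxin Ptx3 (-2.89), the interferon-induced membrane protein Ifitm1 (-2.94) and podoplanin Pdpn (-2.26), which is also a lymphatic marker. Ifitm1 read 5.11 to 5.41 at 2 weeks, 5.51 in 48 h mouse 4 and 7.76 to 9.76 in the other 48 h mice. The homeostatic chemokine Cxcl12 fell by 1.26 ± 0.22 SE (adjusted p = 0.0156), and Cxcl16 rose by 0.73. Among 6 CC chemokine genes 1 rose, Ccl5, and among 9 CXC genes 1 rose and 2 fell, against 2.8% higher and 5.44% lower of all genes. Ccl5 was above the array median on every 2-week array and on 1 48 h array. Cxcr2, 1 of the CXC falls, was above it on 4 of the 48 h arrays and on no 2-week array. Both passed the filter through the time at which they were high. With no filter the CC list gave 0 rises and 1 fall of 12, and the CXC list 1 rise and 1 fall of 12 (1.53% and 2.47% of all genes).

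DNA replication genes were lower at 2 weeks, and how many were called depended on 48 h mouse 4. All 21 replication genes tested had lower means at 2 weeks (median -1.65), and 8 fell: Mcm5 (-2.33), Uhrf1 (-2.19), Prim1 (-2.08), Cdc6 (-2.04), Mcm4 (-1.91), Rfc4 (-1.88), Mcm3 (-1.69) and Mcm7 (-1.37). All 21 fell without 48 h mouse 4 (the background was then 22.5% lower), and with another mouse left out as few as 0. Cdc6, which loads the replicative helicase, read 5.69, 5.96, 6.17, 5.93 and 5.63 at 2 weeks, against 9.12, 7.57, 8.34, 6.23 and 8.32 at 48 h (-2.04 ± 0.44 SE, adjusted p = 0.0272). Mouse 4 lay just above the 2-week range and the other 48 h mice well above it. Prim1, the catalytic primase subunit, read 6.14, 6.61, 6.42, 6.89 and 5.98 at 2 weeks, against 9.60, 8.19, 8.91, 6.87 and 8.88 at 48 h (-2.08 ± 0.43 SE, adjusted p = 0.0246). It was the list member whose time change differed from that of the RCA (-2.25, adjusted p = 0.0298).

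Mitosis genes gave no call. Of 19 tested 0 were called with all arrays (median -0.33), and 7 fell without 48 h mouse 4. Mki67, the proliferation antigen Ki-67, read 9.86, 9.97, 9.95, 10.19 and 10.22 at 2 weeks, against 10.91, 9.88, 10.71, 8.54 and 10.85 at 48 h (-0.14 ± 0.40 SE, adjusted p = 0.831). In the RCA at 2 weeks it read 4.46, 7.60, 6.47, 6.30 and 4.87. The replication list mean at 2 weeks was 6.19 to 6.52 in the LCA, against 5.59 to 5.87 in the RCA, and the mitosis list mean was 5.87 to 6.46 in the LCA, against 3.97 to 4.52 in the RCA.

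Replication genes are switched on by E2F factors, whose core site is often written TTCCCGC. This motif was chosen for the search after the calls were known. In the 250 bases before the start site it was found, on either strand, in 5 of 17 replication genes with a promoter in RefSeq (29.4%, against 4.38% of 27025 promoters): Cdc6, Mcm7, Prim1, Rrm1 and Uhrf1. The related TTGGCGC was found in 2 of 17 (11.8%, against 2.31%). CCAAT, the NF-Y box, was found in 10 of 17 replication promoters (58.8%) and in 15 of 17 mitosis promoters (88.2%), against 37.5% of all. TTTGAAA was found in 3 of 17 mitosis promoters (17.6%, against 6.69%), and GAGGAA, the core read by the myeloid factor PU.1, in 6 of 11 macrophage promoters (54.5%, against 25.9%). A match describes letters in a window and is not a binding site. The windows of the 3 called genes with the first motif and the largest falls are shown with it in capitals: Cdc6 at chr11:98907901-98908150, Prim1 at chr10:128014965-128015214 and Uhrf1 at chr17:56303087-56303336, all on the plus strand of GRCm38.p6. In Cdc6 the motif lies on the opposite strand, so the capitals show its reverse complement.
Cdc6: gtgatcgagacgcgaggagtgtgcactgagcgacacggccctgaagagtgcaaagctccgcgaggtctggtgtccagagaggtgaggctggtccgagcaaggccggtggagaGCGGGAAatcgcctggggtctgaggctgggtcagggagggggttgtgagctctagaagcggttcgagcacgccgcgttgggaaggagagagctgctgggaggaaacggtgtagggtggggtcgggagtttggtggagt
Prim1: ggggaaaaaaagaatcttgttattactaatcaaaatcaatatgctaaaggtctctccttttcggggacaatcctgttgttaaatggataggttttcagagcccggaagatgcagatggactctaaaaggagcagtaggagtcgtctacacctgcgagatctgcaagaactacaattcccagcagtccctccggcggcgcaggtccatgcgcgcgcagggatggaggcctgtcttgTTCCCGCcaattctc
Uhrf1: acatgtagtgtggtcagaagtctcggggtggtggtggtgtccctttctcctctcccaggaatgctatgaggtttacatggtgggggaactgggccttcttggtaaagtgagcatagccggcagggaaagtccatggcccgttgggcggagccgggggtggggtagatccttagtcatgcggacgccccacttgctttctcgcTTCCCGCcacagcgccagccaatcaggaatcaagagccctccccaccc

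Lists of growth and biosynthesis gave between 0 and 6 falls each, against 5.44% of all genes called lower (22.5% without 48 h mouse 4). All 14 ribosome biogenesis and MYC target genes had lower means at 2 weeks (median -0.86) and 6 fell, among them nucleolin Ncl (-0.92), the RNA polymerase I subunit Polr1b (-0.85), fibrillarin Fbl (-0.84) and Nop56 (-0.75). The count was 12 without 48 h mouse 4, 2 without 2-week mouse 2 and as low as 0 with another mouse left out. Of 11 cholesterol synthesis genes 2 fell, Idi1 (-1.42) and Sc5d (-0.97), and of 13 glycolysis genes 1 fell, the pyruvate kinase Pkm (-0.80). The 16 endoplasmic reticulum chaperones all had lower means (median -0.41) with 0 called, and 10 fell without 48 h mouse 4. The 12 ATF4 target genes (median -0.55), 18 respiratory chain genes (-0.29) and 15 immediate early genes (-0.10) gave 0 calls, and without 48 h mouse 4 the falls numbered 5, 8 and 2, with 1 rise among the ATF4 targets. Asns, asparagine synthetase and an ATF4 target, read 3.05 to 4.57 at 2 weeks, 3.52 in 48 h mouse 4 and 6.31 to 8.30 in the other 48 h mice (-2.81, adjusted p = 0.0552). Of 14 antioxidant genes 1 fell, the mitochondrial superoxide dismutase Sod2 (-0.46), and of 10 glucocorticoid-responsive genes 1 fell, Cebpd (-0.96). Of 12 clock genes 1 fell, the repressor Cry1 (-1.31), and the clock output gene Dbp (2.24, adjusted p = 0.0856) was not called.

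Among flow-associated genes 1 was called. Klf2, the flow-induced transcription factor, read 8.54, 8.90, 9.99, 8.94 and 9.20 at 2 weeks, against 5.99, 7.30, 6.93, 6.50 and 6.38 at 48 h. Every 2-week value lay above every 48 h value, a 5.64-fold difference (log2 2.50 ± 0.30 SE, adjusted p = 0.00418). The LCA mean was 7.60 at 12 h, 7.34 at 24 h, 6.62 at 48 h and 9.12 at 2 weeks, and the RCA mean was 9.99, 10.35, 9.58 and 10.46 at the same times. The rise exceeded that of the RCA (difference of changes 1.62 ± 0.21 SE, adjusted p = 0.00593), and the LCA minus RCA mean was -1.34 at 2 weeks, against -2.96 at 48 h. Klf2 was the 1 called member of 13 laminar flow-associated genes tested.

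Klf4, its close relative, read 7.81, 10.29, 9.45, 8.51 and 8.56 at 2 weeks, against 7.25, 9.46, 8.53, 9.91 and 7.45 at 48 h, and the groups overlapped over most of their range (0.40 ± 0.59 SE, adjusted p = 0.665). Nos3, endothelial nitric oxide synthase, read 6.29, 6.41, 6.17, 6.03 and 6.70 at 2 weeks, against 6.90, 6.79, 6.64, 6.87 and 6.75 at 48 h (-0.47 ± 0.14 SE, adjusted p = 0.0585). It was below the RCA mean of 8.14 at 2 weeks and 8.12 at 48 h. Klk10, a secreted serine protease of endothelium under steady flow, read 4.15, 7.51, 4.40, 4.45 and 4.32 at 2 weeks, against 5.84, 5.12, 5.99, 6.29 and 4.63 at 48 h. In 4 of the 5 mice at 2 weeks it was lower than in any 48 h mouse, and 2-week mouse 2 was higher than all of them (-0.61 ± 0.62 SE, adjusted p = 0.514). Without that mouse the difference was -1.25 and was called (adjusted p = 0.0427).

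**Figure D4:**
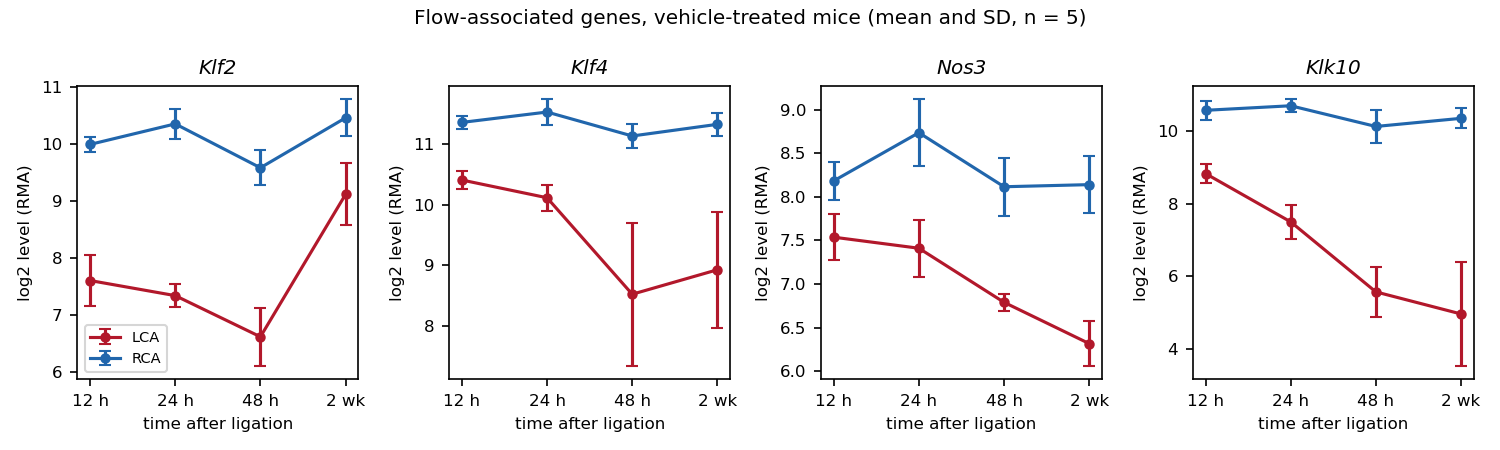
Mean log2 level and SD (n = 5) of Klf2, Klf4, Nos3 and Klk10 in the LCA (red) and RCA (blue) of vehicle-treated mice at 12 h, 24 h, 48 h and 2 weeks after ligation. The LCA line of Klf2 stands at 6.62 at 48 h and 9.12 at 2 weeks, while that of Klk10 stands at 8.84 at 12 h and 4.97 at 2 weeks.

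Some adhesion, sprouting and clotting genes of the endothelium fell, and 5.44% of all genes tested were called lower. P-selectin, Selp, read 9.88, 10.50, 10.08, 9.79 and 9.90 at 2 weeks, against 11.05, 10.87, 11.04, 10.76 and 10.90 at 48 h, without overlap (-0.89 ± 0.15 SE, adjusted p = 0.0131). E-selectin, Sele, fell by 1.77 on the log2 scale (SE 0.36, adjusted p = 0.0242), and these were the 2 called members of 12 disturbed-flow and adhesion genes. Vcam1 (-0.45, adjusted p = 0.462) and Icam1 (-0.21, adjusted p = 0.267), the adhesion molecules for firm arrest of leukocytes, were not called. Esm1, endocan, a gene of sprouting tip cells, read 2.91, 2.78, 2.89, 3.53 and 4.55 at 2 weeks, against 10.48, 7.85, 10.26, 2.56 and 10.29 at 48 h. It was present in 4 of the 5 mice at 48 h and low in 48 h mouse 4 and in all 2-week mice (-4.96 ± 1.34 SE, adjusted p = 0.0474). Igfbp3 read 2.58 to 3.22 at 2 weeks, with 2.54 in 48 h mouse 4 and 6.64 to 9.51 in the other 48 h mice (-4.13 ± 1.10 SE, adjusted p = 0.0463). With the urokinase receptor Plaur (-1.51) these were 3 falls of 10 tip cell genes. There were 7 falls without 48 h mouse 4 and 1 without 2-week mouse 2, where 22.5% and 4.42% of all genes were lower. Esm1 and Igfbp3 were above the array median on no 2-week array, and with no filter 0 of all 12 members were called. Plvap, a diaphragm protein of fenestrated endothelium, fell by 2.05 ± 0.39 SE (adjusted p = 0.0196). Plat, tissue plasminogen activator, read 5.59, 5.73, 6.28, 6.73 and 5.71 at 2 weeks, against 8.35, 8.19, 7.68, 7.33 and 7.41 at 48 h, without overlap (-1.79 ± 0.27 SE, adjusted p = 0.00968). The tissue factor inhibitor Tfpi (-1.17) and Plaur were the other falls among 8 coagulation genes.

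Among endothelial identity genes 2 of 15 were called, against 8.24% of all genes. Of these 1 rose, the guidance receptor Robo4 (1.21), and 1 fell, the TGF-beta co-receptor Eng (-0.86), with a list median of -0.06. Cdh5, VE-cadherin, read 10.73 to 11.02 at 2 weeks and 10.92 to 11.08 at 48 h. Genes of BMP signalling (9 tested) and YAP/TAZ targets (8) gave 0 calls. Hba-a1, alpha globin of red cells, rose by 2.75 (adjusted p = 0.0476) and varied widely in the RCA too, from 3.91 to 12.10 at 2 weeks and from 3.0 to 6.08 at 48 h. Rhpn2 and Car8, a catalytically inactive carbonic anhydrase relative, were high in the RCA and fell in the LCA (-2.38 and -2.17 on the log2 scale). Rhpn2 read 3.88, 5.83, 4.47, 4.35 and 4.62 at 2 weeks, against 7.24, 6.81, 7.22, 7.01 and 6.75 at 48 h, and averaged 8.60 at 2 weeks and 8.92 at 48 h in the RCA.

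**Figure D5:**
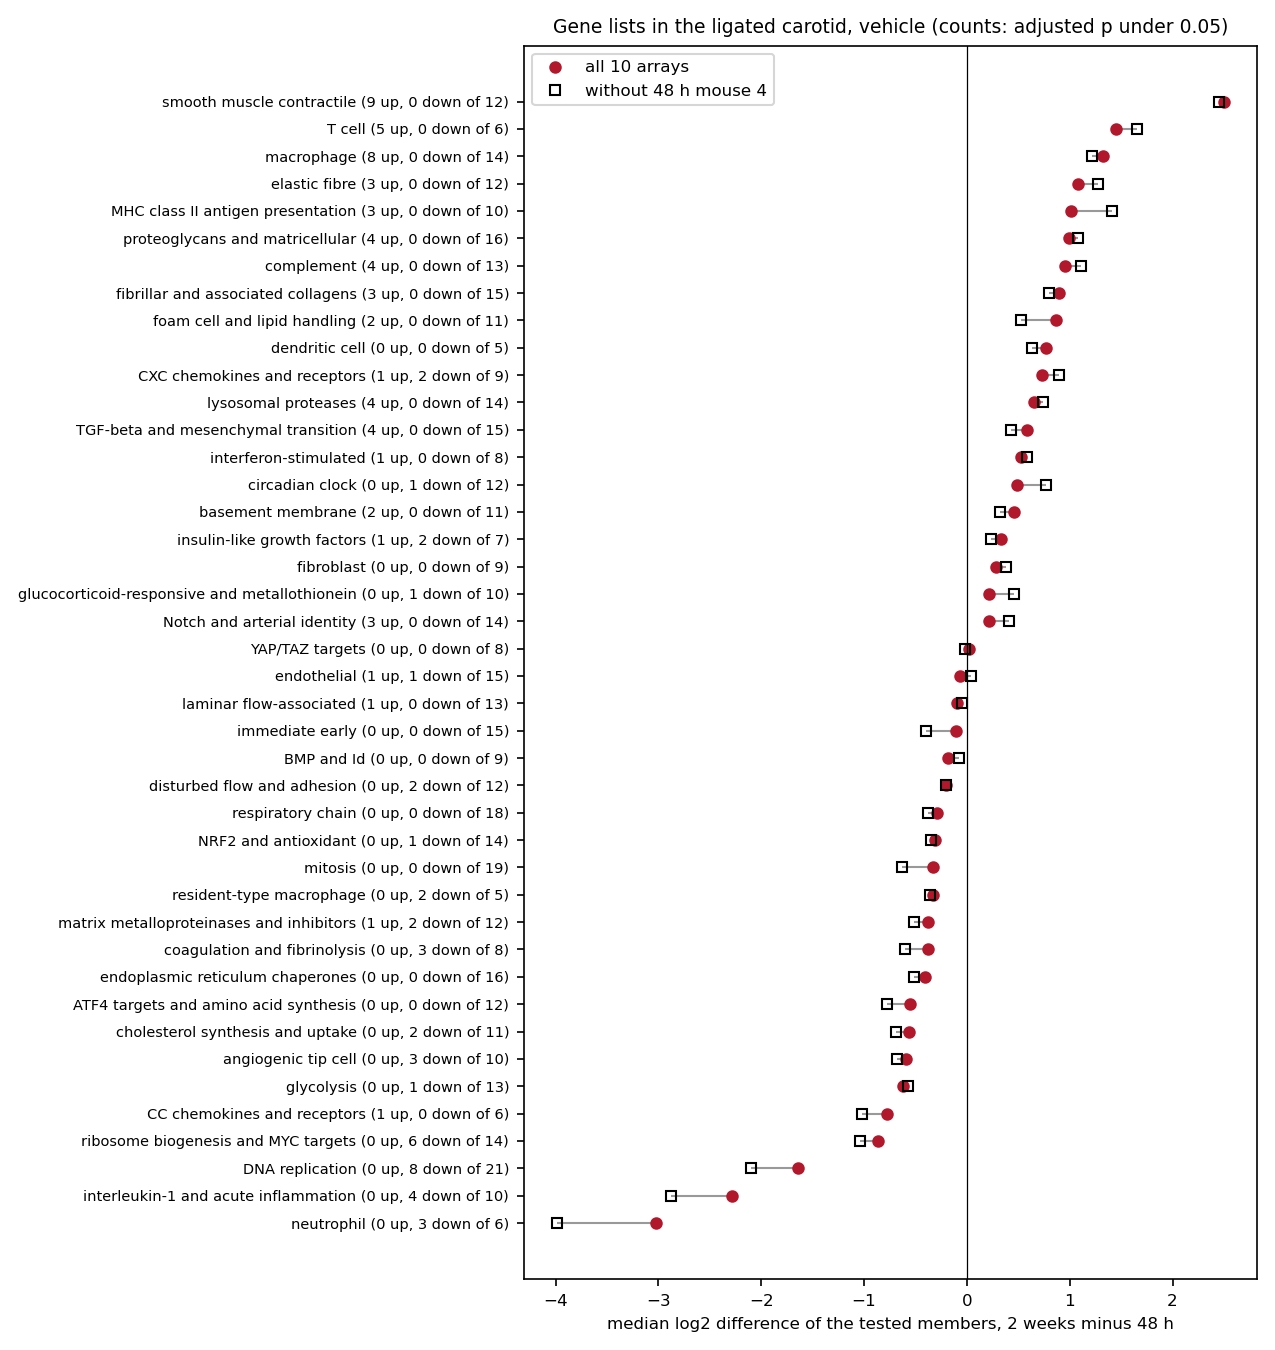
Median log2 difference, 2 weeks minus 48 h, over the tested members of the 42 gene lists with at least 5 of them in the ligated carotid, with all 10 arrays (filled) and without 48 h mouse 4 (open squares), and the number of members called higher and lower. Among these lists smooth muscle lies highest at 2.50 and neutrophil lowest at -3.03 with all arrays, where members below the filter are left out.

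Set beside the control artery of the same mice, most called genes fell into a few patterns. With a margin of 1 log2 unit, 128 of the 282 higher genes were within the margin of the RCA at 48 h and above it at 2 weeks, 104 were within it at both times, and 29 were above it at both. A further 12 were below the RCA at 48 h and within the margin at 2 weeks. Klf2 was the 1 higher gene below the RCA at both times. Of the 548 lower genes 377 were within the margin at both times, 123 were above the RCA at 48 h and within the margin at 2 weeks, and 32 were within it at 48 h and below at 2 weeks. A further 8 of the lower genes were below the RCA at both times. These classes use group means and carry no test.

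The difference of the time changes between the arteries was tested on the 10 within-mouse LCA minus RCA differences. Of 10589 genes 94 rose more, or fell less, in the LCA (0.888%) and 52 the reverse (0.491%), 1.38% in all. Cd72, an inhibitory receptor of B cells and macrophages, had, with Mmp13, the smallest adjusted p of the named genes (4.15 ± 0.29 SE and 3.67 ± 0.26 SE, adjusted p = 6.69e-05 each). Among called genes that were named, the largest falls relative to the RCA were Ifitm1 (-3.25), Prim1 (-2.25), Plat (-2.07), Rhpn2 (-2.06) and Hirip3, a histone-binding protein (-2.05). Without 48 h mouse 4 there were 318 rises and 618 falls (3.02% and 5.86%, 8.88% in all).

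The same step in time in the RCA gave 2 rises (0.0203%) and 9 falls (0.0914%) among 9843 genes, 0.112% in all, and 1743 genes had an unadjusted p under 0.05 (17.7%). The rises were Dbp (1.23, adjusted p = 0.0219) and Sphk2, a sphingosine kinase (1.02, adjusted p = 0.0321). The falls included the kinesin Kif20b (-1.90), Ccdc86 (-1.52), the collagen Col18a1 (-1.10), Fam111a (-1.09) and Tmem88 (-1.01). Kif20b read 3.46, 3.76, 2.98, 4.03 and 2.95 at 2 weeks, against 5.19, 5.55, 4.77, 5.51 and 5.67 at 48 h in the RCA, without overlap. Leaving out single mice gave 0 to 9 calls. The count was 1 (0.0102%) without 48 h mouse 4, and without 2-week mouse 3 or 48 h mouse 1 or 2 it was 0.

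Whether the time change depended on treatment was tested in the 19 LCA arrays of both treatments. Of 10523 genes limma called 0, and 146 had an unadjusted p under 0.05 (1.39%). Klf2 changed by 2.50 in vehicle-treated mice and by 1.61 in atorvastatin-treated mice (difference 0.89 ± 0.49 SE). Ms4a7 changed by 3.63 in vehicle-treated mice and by 3.61 in atorvastatin-treated mice (0.01 ± 0.71 SE), and Acan by 4.63 and 5.20 in the same order (-0.57 ± 0.88 SE). Esm1 changed by -4.96 in vehicle-treated mice and by -2.54 in atorvastatin-treated mice (-2.42 ± 2.16 SE). With adjusted p = 0.999 for each of these genes the test does not show that the treatments act alike.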

How the data were processed

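Array levels were measured in RNA flushed from both carotid arteries of 39 mice (78 arrays). The deposited values are log2 levels after RMA, which the authors computed, per the submitters' processing notes. Neither the program that ran RMA nor its probe grouping is stated in the sources read here. The table holds 45118 probe sets, 81 of them controls. Of the others, 28898 carry 1 gene symbol, 551 several and 15588 none. Each of 17097 genes was read through its probe set with the highest mean over all 78 arrays.

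The 10 arrays of the ligated carotid were fitted alone with limma 3.58.1 (R 4.3.3). Genes above the array median on at least 4 arrays of the fit were tested, with Benjamini-Hochberg adjustment over all of them. The RCA, the within-mouse LCA minus RCA difference and the treatment comparison were fitted likewise. The fits were tested on simulated data. The comparison, the 53 gene lists and the rule for named genes were chosen with earlier results of these data known. Named genes were the 12 largest rises and falls without overlap, up to 4 called members of a list, 6 flow and adhesion genes, and the 5 largest rises and falls of the other comparisons. Predicted genes were not named, and list members could be named with their values. The promoters shown, and the genes called in every fit with 1 mouse left out, were chosen after their values were seen. Alternatives were other filters, a further quantile normalization, the mean of all probe sets, another variance model, array weights, all groups in 1 fit, blocks and left-out mice. The small number of arrays limits the precision.

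Same-numbered mice of the ligated carotid had correlations of 0.07, 0.12, 0.13, -0.35 and 0.02 between their deviations from the group means, so the numbers do not pair the mice.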

Additional observations from a re-analysis of the deposited data

Results flagged for a closer look

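Within groups of 5 mice, a value was set apart when its gap to the nearest other value exceeded 0.71 of the group's range (Dixon's 95% limit). Of 314 groups checked 32 held such a value, and chance gives about 1 in 20. Each value below is a log2 level in the LCA, with the range of the other 4 mice of its group in parentheses.

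In 2-week mouse 2 the values set apart included Itga8 at 6.97 (11.22 to 12.09), Speg at 7.49 (10.42 to 11.30), Cnn1 at 3.72 (7.15 to 8.54) and Fancb at 3.62 (3.88 to 3.98). In the same mouse were Myl9 at 8.44 (10.81 to 11.42), Cd163 at 5.78 (4.06 to 4.49), Mcm3 at 5.47 (4.87 to 5.02) and Ncl at 6.89 (6.16 to 6.31). Also apart in 2-week mouse 2 were Sc5d at 5.04 (5.57 to 5.76), Col4a5 at 5.01 (8.56 to 9.63), Eln at 10.52 (12.13 to 12.37) and Postn at 6.07 (9.86 to 11.20). Further values of 2-week mouse 2 were Klk10 at 7.51 (4.15 to 4.45), the smooth muscle contractile list at 6.99 (9.51 to 10.33), the resident-type macrophage list at 6.63 (5.77 to 5.99) and the angiogenic tip cell list at 5.69 (6.07 to 6.16). The last was the circadian clock list at 7.37 (6.98 to 7.08).

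In 48 h mouse 4 the values set apart included C1qb at 7.44 (5.79 to 6.22), Hba-a1 at 3.47 (5.23 to 5.48), Sc5d at 5.98 (6.56 to 6.68) and Slfn4 at 4.15 (9.07 to 9.83). In the same mouse were Ccl5 at 7.95 (3.83 to 4.51), Cd55 at 8.18 (7.21 to 7.46), C1qa at 6.38 (3.95 to 4.34) and Mmp13 at 5.56 (3.32 to 3.86). Also apart in 48 h mouse 4 were Adamts4 at 4.32 (7.71 to 8.11), the neutrophil list at 3.36 (7.72 to 9.47), the T cell list at 4.52 (3.54 to 3.76) and the matrix metalloproteinases and inhibitors list at 6.87 (7.85 to 8.05).

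Cxcr2 stood at 3.58 in 2-week mouse 5 (2.71 to 2.91). Cd2 stood at 6.25 in 2-week mouse 3 (4.76 to 5.14). Heyl stood at 5.92 in 48 h mouse 2 (3.23 to 3.80).

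The change between 2 weeks and 48 h differed between the LCA and the RCA for 33 named genes (limma on the within-mouse differences, adjusted p under 0.05). The LCA change was the higher for Ms4a7 (4.47), Acan (4.41), Gucy1a1 (4.37), Cd72 (4.15), Actg2 (4.02), Igfbp2 (3.78), Ccl5 (3.70) and Mmp13 (3.67). It was also higher for C1qc (3.67), Ltbp2 (3.65), C1qb (3.60), Aif1 (3.53), Col6a3 (3.42), Col4a5 (3.40), Ltbp1 (3.40) and Tgfb3 (2.56). The same held for Col15a1 (2.53), C1qa (2.39), Cd3e (2.17), Eln (2.16), Cd3g (2.11), Klf2 (1.62), Cd2 (1.33) and Ctsb (0.97). It was the lower for Ifitm1 (-3.25), Prim1 (-2.25), Plat (-2.07), Rhpn2 (-2.06), Hirip3 (-2.05), Car8 (-1.96), Cxcl12 (-1.84) and Sc5d (-1.79). It was also lower for Cry1 (-1.28).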

How the results depend on the processing

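In the ligated carotid the 830 calls became 1621 with all groups in 1 fit, 5046 with array weights, 1633 with the title code number as a random block and 2971 without 2-week mouse 2 and 48 h mouse 4. Leaving out 1 mouse at a time gave 96 to 3169. A further quantile normalization gave 631 calls, 48.3% of them higher, against 34%. In the control carotid the 11 calls became 6 with quantile normalization, 7 with an intensity trend and robust variance, 91 with all groups in 1 fit, 59 with array weights, 68 with the title code block, 3 without both mice and 0 to 9 with 1 mouse left out. For the LCA minus RCA difference the 146 calls became 603, 1316 (43.7% higher, against 64.4%) and 621 under the same last 3 settings, 902 without both mice and 17 to 936 with 1 mouse left out. The treatment comparison gave 0 calls in limma under every setting run. With the mouse number as a replicate block, the counts were 90, 0 (1512 genes at an unadjusted p under 0.05) and 33, and the numbers do not pair the mice. No paired fit of the treatment comparison was run. None of the named genes followed through these settings in the ligated carotid reversed its direction. Among those that still passed the filter without 48 h mouse 4, 105 kept their side of the threshold and 1 gained a call. Among those that passed it without 2-week mouse 5, 28 kept their side and 73 lost a call. Fewer mice are part of each left-out fit, and other causes were not tested. Each vehicle group holds 5 mice and the atorvastatin 48 h group 4, extraction batches cannot be told apart from time, and low array signals limit the genes tested.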
